A study of Mus musculus with 6 samples.

Results

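Most of the genes described here encode the enzymes and subunits that remodel nucleosomes or that write, read and erase marks on histones and DNA in mouse early B-lineage cells. They were chosen by name alone: every array probe whose gene name begins with Smarc, Kdm, Jmjd, Jarid, Dnmt, Mll, Setd or Suv, begins with Arid, Hdac, Sirt, Cbx or Chd and a digit, is Tet1 to Tet3, or is Ezh1, Ezh2, Suz12, Eed or Bmi1. This gave 113 of the 27827 gene names on the array, measured by 244 of its 41174 probes. The cells were Ebf1 -/- pre-pro-B cells, the earliest B-lineage stage (fraction A), and all 6 samples share that deletion. A layer of OP9 stromal cells supported the cultures, which held 4% serum and 10 ng/ml of each of 3 cytokines: Flt3 ligand, interleukin 7 and stem cell factor. In 3 samples the cells carried a control retrovirus with EGFP alone (pMYs-IRES-EGFP), and in the other 3 a retrovirus with EGFP and Ebf1 (pMYs-Ebf1beta-IRES-EGFP), Ebf1 being the transcription factor that starts the B-cell programme. EGFP-positive cells were sorted 24 h after infection, and their RNA was hybridised to 1-colour Agilent arrays. The retroviral insert is expressed from the vector and not from the Ebf1 locus, and the age and strain of the mice of origin are not given in the sources used here. The labels do not say whether the 3 samples of a group came from separate cultures, so the p-values measure only the spread between these samples, which may be technical.

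Nucleosome remodellers of the SWI/SNF, ISWI and CHD families use ATP to slide or evict nucleosomes and so expose DNA to transcription factors. Polycomb complexes place and bind repressive histone marks, MLL and SET1 enzymes methylate histone H3 at promoters, and demethylases and deacetylases take marks off. DNA methyltransferases and Tet oxidases set the methylation of CpG sites, which is lost from B-lineage genes such as Cd79a as the lineage is established.

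The sequences that carry the results are of 2 kinds. The first are the 250 bases upstream of the start site of the 3 genes whose change passed the test under all 16 probe-level alternatives, which are given because these genes moved in opposite directions in the same cells. They are shown 5′ to 3′ in the direction of transcription, from RefSeq on GRCm38.p6, at chr7:28766502-28766751 (plus strand), chr11:106267633-106267882 (minus strand) and chr2:153649199-153649448 (plus strand). Capitals mark CCCNNGGG, the inner part of the palindrome that Ebf proteins bind, which has T before and A after these letters. Both read the same on either strand, and N stands for any base.
Sirt2: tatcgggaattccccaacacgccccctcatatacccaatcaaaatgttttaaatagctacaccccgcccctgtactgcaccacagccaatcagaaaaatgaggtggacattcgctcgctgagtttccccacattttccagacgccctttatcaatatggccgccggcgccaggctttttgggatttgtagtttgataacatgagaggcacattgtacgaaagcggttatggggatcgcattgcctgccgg
Smarcd2: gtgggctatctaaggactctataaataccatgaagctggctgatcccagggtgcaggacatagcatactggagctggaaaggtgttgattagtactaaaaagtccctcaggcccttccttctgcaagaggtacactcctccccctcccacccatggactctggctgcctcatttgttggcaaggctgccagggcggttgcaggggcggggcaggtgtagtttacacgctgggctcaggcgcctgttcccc
Dnmt3b: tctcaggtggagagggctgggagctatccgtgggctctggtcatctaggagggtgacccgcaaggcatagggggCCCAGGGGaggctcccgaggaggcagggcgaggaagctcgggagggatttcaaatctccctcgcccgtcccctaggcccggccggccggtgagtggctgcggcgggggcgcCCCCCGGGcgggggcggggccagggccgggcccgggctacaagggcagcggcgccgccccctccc
The Dnmt3b stretch holds CCCNNGGG at 2 positions, which begin 176 and 65 bases before the start site, and the Sirt2 and Smarcd2 stretches hold none. RefSeq promoters of 300 bases, from 250 before to 50 after a start site, were matched for 93 of the 113 genes. CCCNNGGG lay in 15 of their 126 promoters (11.9%) and in 13.7% of the 32851 promoters of all genes. The full palindrome lay in 1 of the 126 (0.794%), that of Eed, and in 0.904% of all promoters. Among the genes that changed and had a matched promoter, Cbx6 and Hdac4 were the others with the inner motif. The median GC content was 63.5% in these promoters and 52.7% in all promoters, and a match describes letters, not a bound site.

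The second kind are 60-base probes whose position spans an intron, so that they pair with spliced RNA, and they are given because the probes of one gene did not always move together. On mm9 they lie at chr7:29571001-29572626 in Sirt2, chr12:3906868-3907649 in Dnmt3a, and chr6:125047264-125050525 and chr6:125073647-125078816 in Chd4. All are written 5′ to 3′ along the transcript.
Sirt2 probe: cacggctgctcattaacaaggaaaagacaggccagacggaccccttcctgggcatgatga
Dnmt3a probe: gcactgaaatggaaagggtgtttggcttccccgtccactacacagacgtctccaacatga
Chd4 probe near the 5′ end: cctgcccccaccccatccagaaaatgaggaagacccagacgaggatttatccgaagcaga
Chd4 probe farther 3′: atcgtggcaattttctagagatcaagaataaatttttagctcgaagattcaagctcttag

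Values are log2 signals relative to each array's 75th percentile, so 0 is the 75th percentile of that array, and each change is Ebf1 virus minus control virus with the standard error of the limma fit. The percentile corresponded to a signal between 239.9 and 365.7 in control samples and between 316.4 and 364 in Ebf1 samples. Features well above background made up 46.63 to 50.49% and 50.54 to 60.05% of the arrays. The Ebf1 probe that gave signal read 0.86, 0.10 and 0.36 in control cells and 0.22, 0.40 and 0.27 in Ebf1 cells (change -0.15 ± 0.21, adjusted p = 0.646), and the other Ebf1 probe was above background on no array. Whether the deletion or the viral insert covers the first probe's target is not given in the sources used here, so it checks neither label. All 5 tested markers of committed B cells rose, Blnk, Cd79b, Igll1 and Vpreb1 among them, and the signals of that marker list summed to 1.6 to 1.84 times the 75th percentile in control arrays and 509 to 563 times in Ebf1 arrays, with Cd79a above background on no array. Of 8 early lymphoid markers, Cd34, Il7r and Kit fell and Notch1 and Rag1 rose, and the summed level was 169 to 259 and 101 to 122. The summed levels of other lists also moved: T and NK cells 17.4 to 20.7 and 14.1 to 16 (3 of 6 lower, Klrb1c on no array), myeloid cells 3.53 to 4.93 and 1.22 to 1.74 (1 of 3 higher, 1 lower, Csf3r on no array), stromal feeder cells 18.9 to 26.2 and 27.6 to 36 (1 of 8 higher, Lum and Postn on no array), and erythroid and megakaryocytic cells 8.22 to 11.4 and 12.3 to 14.2 (2 of 5 higher, 2 lower, Pf4 on no array). Their part in the results below was not tested, and in bulk samples fewer cells of a type and less RNA per cell cannot be told apart.

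Most chromatin genes did not pass the test, and a small number moved clearly. A probe was tested where every array of at least 1 group gave signal well above background, which held for 200 of the 244. Of the other 44, 23 were above background on no array. The tested probes covered 105 genes, each represented by its brightest probe, and 8 genes had no tested probe: Smarca1, Chd5, Setdb2, Jarid1d (now Kdm5d), Jmjd4, Jmjd8, Hdac11 and Dnmt3l. At an adjusted p under 0.05, 38 probes passed, 24 of them higher in Ebf1 cells and 14 lower, which is 19% of those tested against 21.7% of all 20455 probes (11.5% higher, 10.2% lower). Counted by gene, 11 rose and 9 fell, again 19%, against 23.6% of all 13835 genes (12.6% higher, 11% lower). Changes of at least 2-fold were called in 6 genes (5.71%), against 11.4% of all genes and 10.3% of all probes. The groups did not overlap for 76 probes (38%), against 42.6% of all probes. The share of chromatin genes that changed was thus no larger than that of all genes.

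The 20 genes lie on 15 chromosomes. The median change over the 105 genes was 0.01, against -0.06 for all genes, and the median absolute change was 0.31 against 0.34. Changes ran from -1.08 to 2.13, while those of all genes ran from -5.31 to 11.00. The median standard error was 0.17, and 73 of the 85 genes that did not pass had an absolute change under 0.5. With arrays scaled to their median signal in place of the 75th percentile, the median change of all probes moved from -0.06 to -0.37, and the split of called chromatin probes went from 24 higher and 14 lower to 7 and 21. The directions given here are therefore relative to the 75th percentile, and the 20 genes had the same direction under median scaling, quantile normalisation and normexp background correction. Median scaling could not have turned them, since it moves every change down by the same amount, which is less than the smallest called rise (0.56).

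**Figure D1:**
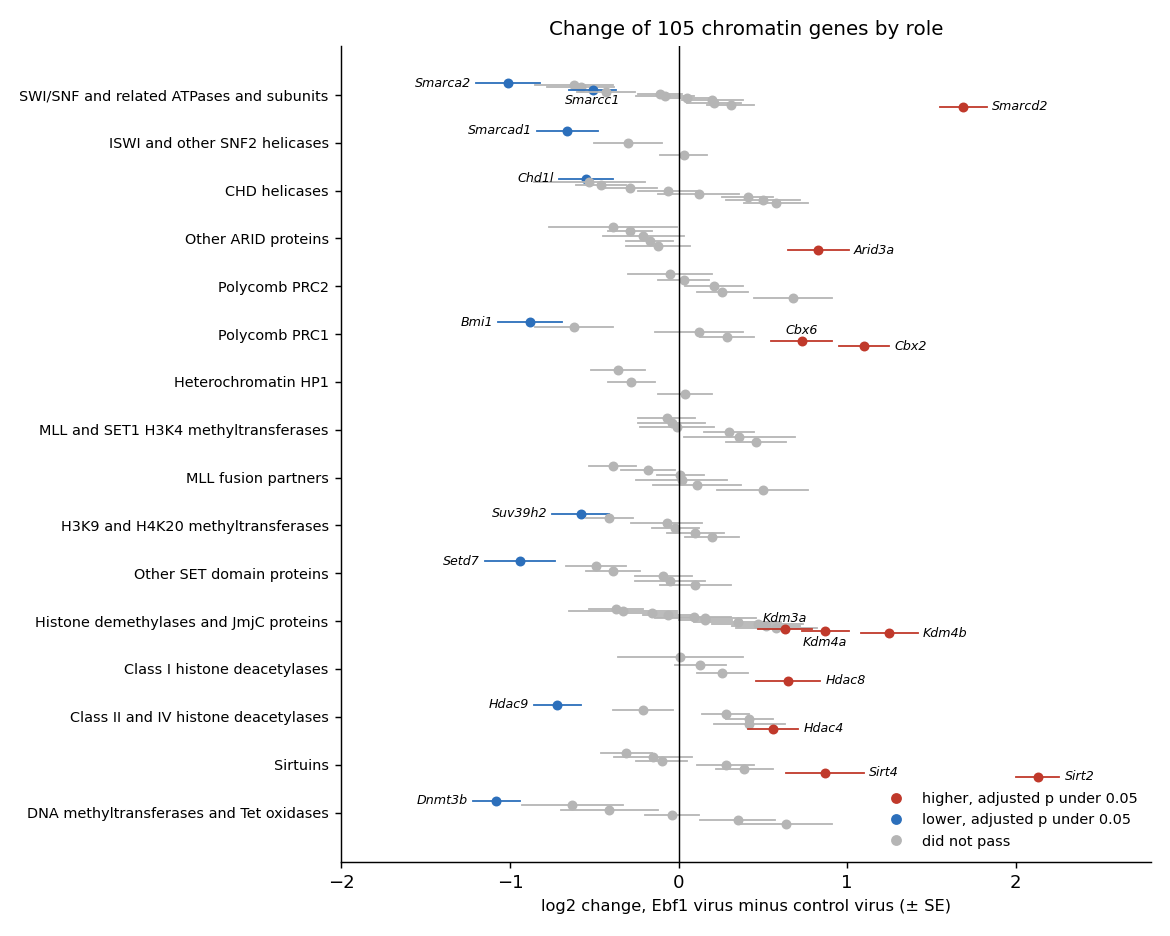
Log2 change of each of the 105 genes with a tested probe (x axis, Ebf1 virus minus control virus, bars are the standard error), grouped by role (y axis). Grey points did not pass the test, the 11 red genes were higher and the 9 blue genes lower, and Sirt2 at 2.13 and Smarcd2 at 1.69 stand farthest to the right.

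Among SWI/SNF genes, 1 rose and 2 fell of 12 tested, with a median change of -0.10. Smarcd2, the BAF60b subunit that links the complex to transcription factors, read 2.75, 2.72 and 2.60 in control cells and 4.43, 4.44 and 4.26 in Ebf1 cells (probe at chr11:106124840-106124899, mm9). The groups lay far apart, at 2.69 ± 0.08 and 4.37 ± 0.10 (SD, n = 3 each), a 3.22-fold rise (change 1.69 ± 0.14, adjusted p = 0.000128). The change was 1.71 in the only slide that held both groups. Smarca2, the Brm ATPase that drives the complex in place of Brg1, read -0.31, -0.18 and 0.07 in control cells and -1.35, -1.29 and -0.81 in Ebf1 cells (chr19:26852394-26852453). It fell 2.01-fold (change -1.01 ± 0.19, adjusted p = 0.00944), and a second, dimmer probe gave -1.12 ± 0.40 without passing (adjusted p = 0.0866). Smarcc1, the BAF155 scaffold, read 6.01, 5.79 and 5.97 in control cells and 5.35, 5.40 and 5.48 in Ebf1 cells (chr9:110141592-110141651). Its decrease was small (change -0.51 ± 0.14, adjusted p = 0.035) and missed the threshold whichever 1 of the 6 arrays was left out, at -0.58 to -0.47. It also missed it with quantile normalisation (-0.35, adjusted p = 0.134) and as the mean of its probes (-0.45, adjusted p = 0.118).

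The core of the complex otherwise did not pass. Smarca4, the Brg1 ATPase, read 6.12, 5.73 and 6.14 in control cells and 4.94, 5.62 and 5.59 in Ebf1 cells. Its groups did not overlap, but Ebf1 replicate 1 stood well below the other two, and the change of -0.62 ± 0.23 had an adjusted p of 0.091. It passed under median scaling (-0.93, adjusted p = 0.037) and with the trended and robust prior (adjusted p = 0.046). Arid1a, which defines the BAF form of the complex, read 3.81, 4.42 and 4.39 against 3.51, 3.77 and 3.61 (change -0.58 ± 0.20, adjusted p = 0.0764). It passed without control replicate 1 (-0.78, adjusted p = 0.0215), under median scaling (-0.89, adjusted p = 0.0472) and with the trended and robust prior (adjusted p = 0.0366). Smarcb1, a core subunit, overlapped at 5.32, 5.41 and 5.50 against 5.37, 5.27 and 5.24, with a change of -0.11 and a 95% interval of -0.43 to 0.20. The remaining members (Arid1b, Arid2, Smarcc2, Smarcd1, Smarcd3 and Smarce1) were not called either, and the 9 that did not pass ran from -0.62 to 0.31.

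The partners of SWI/SNF that the naming rule leaves out showed further changes: 4 of 12 tested BAF and PBAF partners rose and 1 fell (41.7%, against 23.6% of all genes). One of these rises came from a dim probe that was well above background on 2 of 3 control arrays. Its change of 1.00 became 0.22 after normexp correction. Dpf1, the neural-type double PHD finger subunit, rose by 1.86 ± 0.18 (adjusted p = 0.000317). Bcl7a, a small BAF subunit, rose by 1.34 ± 0.15 (adjusted p = 0.00059). Brd9, the bromodomain subunit of the non-canonical complex, rose by 0.92 ± 0.23 (adjusted p = 0.0267). Dpf1 and Bcl7a passed whichever array was left out, whereas Brd9 missed the threshold without control replicate 2 or 3 or Ebf1 replicate 1 or 2, at 0.79 to 0.92.

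Of the remaining helicases few moved. Smarcad1, an SNF2 remodeller that keeps heterochromatin intact during replication, read 1.17, 1.54 and 1.29 in control cells and 0.47, 0.60 and 0.94 in Ebf1 cells (chr6:65065856-65065915; change -0.66 ± 0.18, adjusted p = 0.0375). A second Smarcad1 probe gave 0.06 ± 0.43, and the mean of both did not pass (-0.30, adjusted p = 0.371). It was the 1 gene called of 3 ISWI and other SNF2 genes tested, and Smarca5, the ISWI ATPase, and Smarcal1 lay within -0.30 to 0.03. Chd1l, a remodeller that poly(ADP-ribose) recruits to DNA damage, fell from 2.56, 2.19 and 2.48 to 1.76, 1.96 and 1.87 (chr3:97370688-97370747; change -0.55 ± 0.16, adjusted p = 0.0419). Smarcad1 passed only without Ebf1 replicate 3 among the fits that left out 1 array (range -0.80 to -0.56), and Chd1l passed in none of them (-0.66 to -0.48). Chd1l also missed the threshold with normexp correction (-0.42, adjusted p = 0.0834) and quantile normalisation (-0.48, adjusted p = 0.066).

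Chd1l was the 1 gene called of 9 CHD genes. Chd4, the ATPase of the NuRD deacetylase complex, depended on the probe. Its brightest probe, the one near the 5′ end, read 3.49, 3.42 and 3.74 in control cells and 3.27, 3.80 and 3.41 in Ebf1 cells (change -0.06 ± 0.18). The probe farther 3′ read 1.20, 0.90 and 0.87 against 1.53, 1.77 and 1.70, and rose by 0.67 ± 0.16 (adjusted p = 0.0203). Chd3, the other NuRD ATPase, had a dimmer probe that rose by 0.94 ± 0.17 while its brightest gave 0.50 ± 0.22. Another called Chd3 probe was well above background on 1 of 3 control arrays, and its 1.02 became 0.26 after normexp correction. By their brightest probes the 8 CHD genes that did not pass (Chd1 to Chd4 and Chd6 to Chd9) ran from -0.53 to 0.58.

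Arid3a was the 1 gene called of 6 other ARID genes tested. This factor, also named Bright, binds AT-rich matrix attachment regions of the immunoglobulin heavy chain locus. It read 3.97, 4.34 and 4.34 in control cells and 5.22, 4.77 and 5.15 in Ebf1 cells (chr10:79417383-79417442). The groups did not overlap, and the rise was 1.78-fold (change 0.83 ± 0.18, adjusted p = 0.0171). Without Ebf1 replicate 3 the change was 0.78 with an adjusted p of 0.0544. Arid3b, Arid4a, Arid4b, Arid5a and Arid5b lay between -0.39 and -0.12, and the Arid5b fit lacked 1 Ebf1 array, replicate 3.

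The Polycomb repressive complex 2, which methylates histone H3 lysine 27, showed no call in its 5 tested genes. Ezh2, its main methyltransferase, read 3.01, 3.09 and 2.92 in control cells and 3.19, 2.84 and 3.08 in Ebf1 cells. The change was 0.03 ± 0.15, with a 95% interval of -0.32 to 0.38. Ezh1, the weaker paralogue, read -2.13, -2.03 and -1.91 against -1.90, -1.61 and -1.79 (change 0.26 ± 0.15). The values of Suz12, a subunit the enzyme needs for activity, were 2.69, 3.05 and 2.86 against 3.01, 2.91 and 3.30 (change 0.21 ± 0.17). Eed, which binds the methylated histone, overlapped fully at 1.78, 2.06 and 1.56 against 2.21, 1.30 and 1.73 (change -0.05 ± 0.25). Jarid2, which brings the complex to its targets, had the widest change among all genes that did not pass, 0.68 ± 0.23 (adjusted p = 0.0734), and was the 1 gene here with an unadjusted p under 0.05 in limma. A dimmer Jarid2 probe rose by 0.58 ± 0.17 (adjusted p = 0.0454).

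In Polycomb repressive complex 1, which ubiquitinates histone H2A, 2 of 6 genes rose and 1 fell. Cbx2, a chromodomain subunit that compacts nucleosomes, read 1.71, 1.79 and 1.66 in control cells and 2.61, 2.93 and 2.90 in Ebf1 cells (chr11:118892363-118892422). That is a 2.14-fold rise (change 1.10 ± 0.15, adjusted p = 0.00184), which a second probe matched at 1.12 ± 0.22. Cbx6, another chromodomain subunit, read 4.02, 4.46 and 4.44 against 5.04, 4.84 and 5.24 (chr15:79656576-79656635; change 0.73 ± 0.18, adjusted p = 0.0274). All 3 of its probes rose, by 0.73 to 0.81, but the brightest passed only without Ebf1 replicate 2 among the fits that left out 1 array (range 0.59 to 0.84). Bmi1, the subunit known for blood stem cell self-renewal and repression of the Ink4a locus, read 0.37, 0.60 and 0.48 against -0.75, -0.27 and -0.16 (chr2:18607987-18608046). It fell 1.84-fold (change -0.88 ± 0.19, adjusted p = 0.0151). Bmi1 missed the threshold without control replicate 2 (-0.82, adjusted p = 0.0646) or control replicate 3 (-0.88, adjusted p = 0.0522), and its dimmer probe gave -0.02 ± 0.37. The mean of both probes was -0.45 (adjusted p = 0.0792). The chromodomain subunits Cbx7 and Cbx8 did not pass.

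Among 16 tested partners of both Polycomb complexes, Phc2, a polyhomeotic subunit, was the 1 gene called (0.60 ± 0.16, adjusted p = 0.034), and it passed only without Ebf1 replicate 2 among the fits that left out 1 array (range 0.48 to 0.72). The heterochromatin proteins Cbx1, Cbx3 and Cbx5, which bind methylated histone H3 lysine 9, gave no call in limma, and 0 of the 3 had an unadjusted p under 0.05. Their changes ran from -0.36 to 0.04.

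**Figure D2:**
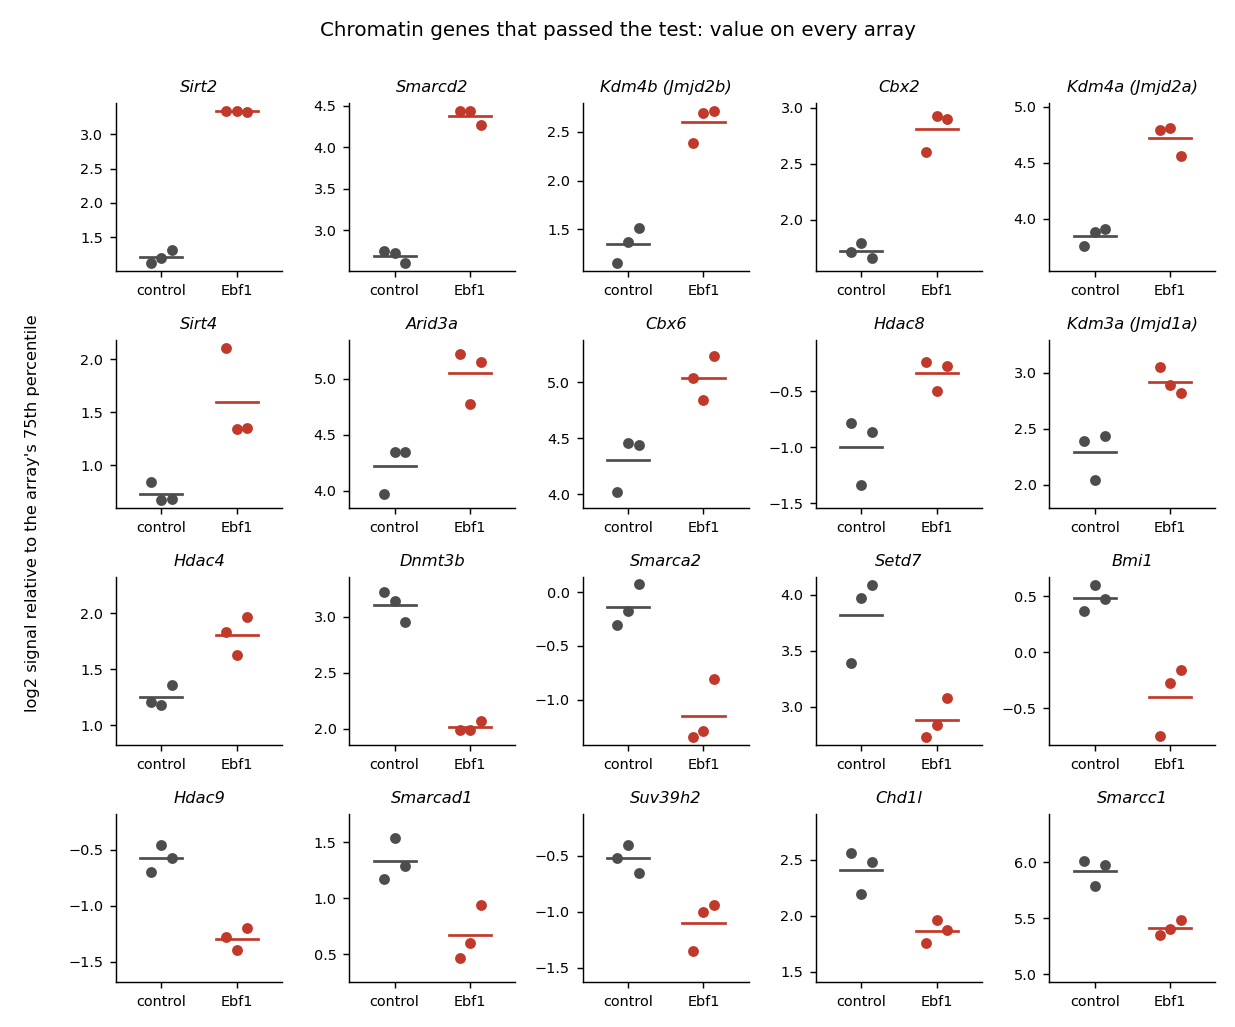
Value of each of the 20 called genes on every array (y axis, log2 signal relative to the array's 75th percentile, its range set for each panel), with control and Ebf1 arrays on the x axis and bars at the group means. In each panel the 3 control and 3 Ebf1 points do not overlap, and the gap is widest for Sirt2, from 1.31 to 3.33.

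Among histone methyltransferases, none of 6 MLL and SET1 genes passed, with a median change of 0.14. The 6 MLL fusion partners, such as Mllt4 (now Afdn), matched the rule by name and are not methyltransferases. None of them passed, with a median change of 0.02. At an unadjusted p under 0.05, limma gave 1 gene in each of these lists, Mll5 (now Kmt2e) at 0.46 ± 0.18 and Mllt6 at -0.39 ± 0.14. Mll1 (now Kmt2a), the enzyme that keeps Hox genes active, read 1.11, 0.76 and 0.88 in control cells and 1.31, 1.24 and 1.10 in Ebf1 cells (change 0.30 ± 0.15, adjusted p = 0.203). Of 8 partners in the COMPASS core, Paxip1, the Ptip subunit of the MLL3 and MLL4 complexes, was the 1 gene called (0.87 ± 0.13, adjusted p = 0.00306), whichever array was left out. The MLL and SET1 genes (Mll1 to Mll3, Mll5, Setd1a and Setd1b) spanned -0.07 to 0.46, and the fusion partners (Mllt1, Mllt3, Mllt4, Mllt6, Mllt10 and Mllt11) spanned -0.39 to 0.50.

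Of 6 genes for methylation of histone H3 lysine 9 and H4 lysine 20, 1 fell. Suv39h2, a heterochromatin methyltransferase, read -0.52, -0.40 and -0.65 in control cells and -1.35, -1.00 and -0.94 in Ebf1 cells (chr2:3381885-3381944; change -0.58 ± 0.17, adjusted p = 0.0449). The call ended whichever array was left out (-0.65 to -0.45), and a second probe gave -0.20 ± 0.19. It ended too with normexp correction (-0.39, adjusted p = 0.113) and with the mean of both probes (-0.39, adjusted p = 0.0903). Its paralogue Suv39h1 read 1.80, 1.81 and 1.79 against 1.23, 1.55 and 1.39. The 3 control values were almost identical and the groups did not overlap, yet the change of -0.41 ± 0.14 had an adjusted p of 0.078. It passed with normexp correction (-0.46, adjusted p = 0.0407) and with the trended and robust prior (adjusted p = 0.0494). Setdb1, which silences endogenous retroviruses, overlapped at 0.26, 0.42 and 0.27 against 0.69, 0.12 and -0.07 (change -0.07 ± 0.21). With Setd8, Suv420h1 and Suv420h2, which methylate histone H4 lysine 20, the 5 genes that did not pass ran from -0.41 to 0.20.

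Setd7, which monomethylates histone H3 lysine 4 and other proteins, was the 1 gene called of 6 other SET domain genes. It read 3.39, 3.97 and 4.09 in control cells and 2.73, 2.84 and 3.08 in Ebf1 cells (chr3:51319332-51319391), a 1.91-fold decrease (change -0.94 ± 0.21, adjusted p = 0.0196). A second probe fell too (-0.85 ± 0.16). The third, called at -1.43, was well above background on 1 of 3 Ebf1 arrays and gave -0.29 after normexp correction. The brightest probe missed the threshold without control replicate 2 or 3 or Ebf1 replicate 1 or 2, at -0.91 to -0.80. Setd2, the H3 lysine 36 trimethylase, and Setd3 to Setd6 lay between -0.49 and 0.10.

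Among 14 other histone methyltransferases outside the naming rule, of which 1 is listed under 2 array names (Whsc1 and Nsd2), Nsd1, an H3 lysine 36 enzyme, rose (0.64 ± 0.19, adjusted p = 0.0456) and Prmt6, an arginine methyltransferase, fell (-0.77 ± 0.18, adjusted p = 0.0229). Nsd1 also missed the threshold with normexp correction (0.30, adjusted p = 0.184), quantile normalisation (0.50), the trended and robust prior (adjusted p = 0.0711) and the mean of its probes (0.37, adjusted p = 0.111). Both genes were lost in most fits that left out 1 array: Nsd1 passed only without control replicate 1 (range 0.51 to 0.78), and Prmt6 only without control replicate 3 or Ebf1 replicate 3 (range -0.88 to -0.63).

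Among histone demethylases and other JmjC proteins, 3 of 14 genes rose and 0 fell in limma, with a median change of 0.26, and at an unadjusted p under 0.05 the counts were 5 and 0. That count was 1 higher and 5 lower for SWI/SNF genes, 0 and 3 for other SET domain genes, and 2 and 0 for sirtuins. It was even in other roles: 2 and 2 for CHD genes, 2 and 2 for Polycomb complex 1, and 1 and 1 for DNA methylation enzymes. The count was not made over all genes, so whether any role differs from them in direction was not tested. Jmjd2b (now Kdm4b), which removes methyl groups from histone H3 lysine 9, read 1.15, 1.37 and 1.51 in control cells and 2.39, 2.69 and 2.72 in Ebf1 cells (chr17:56541883-56541942). The lowest Ebf1 value lay well above the highest control value, a 2.38-fold rise (change 1.25 ± 0.17, adjusted p = 0.00161). Its paralogue Jmjd2a (now Kdm4a) read 3.76, 3.88 and 3.91 against 4.79, 4.81 and 4.56 (chr4:117809639-117809698; change 0.87 ± 0.14, adjusted p = 0.00457), and a second probe rose by 1.22 ± 0.24. Jmjd1a (now Kdm3a), which removes mono- and dimethylation of the same lysine, read 2.39, 2.04 and 2.44 against 3.05, 2.89 and 2.82 (chr6:71539253-71539312; change 0.63 ± 0.16, adjusted p = 0.0309). Of its 3 probes 2 rose, and the brightest missed the threshold whichever array was left out (0.50 to 0.70). Kdm4a and Kdm4b passed in each of those 6 fits. The 11 that did not pass (Jarid1a to Jarid1c, Jmjd1b, Jmjd1c, Jmjd2c, Jmjd2d, Jmjd3 and Jmjd5 to Jmjd7) ran from -0.37 to 0.58.

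Class I deacetylases, the catalytic subunits of corepressor complexes such as NuRD and Sin3, gave 1 call in 4 genes. Hdac1 read 4.01, 3.78 and 3.81 in control cells and 4.21, 4.19 and 3.99 in Ebf1 cells (change 0.26 ± 0.15). Hdac2, its close paralogue, scattered widely at -2.51, -1.62 and -1.66 against -1.17, -2.37 and -2.24, so its interval of -0.86 to 0.87 excludes little. Hdac3, another class I enzyme, read 2.73, 2.69 and 2.86 against 3.11, 2.74 and 2.83 (change 0.13 ± 0.15). Hdac8, which deacetylates cohesin, read -0.78, -1.34 and -0.86 against -0.24, -0.50 and -0.27 (chrX:99503070-99597969, spanning intron sequence; change 0.65 ± 0.19, adjusted p = 0.045). The Hdac8 call ended whichever array was left out (0.48 to 0.76), and its other probe gave 0.46 ± 0.22. It ended too with normexp correction (0.41, adjusted p = 0.0818), quantile normalisation (0.61, adjusted p = 0.0543) and the mean of both probes (0.56, adjusted p = 0.0692).

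Of 6 class II genes, Hdac4 rose and Hdac9 fell, both class IIa enzymes that bind and repress MEF2 factors. Hdac9 read -0.70, -0.46 and -0.57 in control cells and -1.28, -1.40 and -1.20 in Ebf1 cells (chr12:35056507-35056566; change -0.72 ± 0.14, adjusted p = 0.0107). A second, dimmer probe fell too (-1.05 ± 0.26), and gave -0.37 after normexp correction. Without control replicate 2 the change of the brightest Hdac9 probe was -0.66 (adjusted p = 0.0577). Hdac4 read 1.21, 1.18 and 1.36 against 1.83, 1.63 and 1.97 (chr1:93829554-93829613; change 0.56 ± 0.15, adjusted p = 0.0349). Hdac4 passed only without Ebf1 replicate 2 among the fits that left out 1 array (range 0.48 to 0.65). Hdac7, a class IIa enzyme known for repressing myeloid genes in B-cell progenitors, overlapped at 3.05, 2.98 and 3.55 against 3.37, 3.89 and 3.59 (change 0.42 ± 0.21, adjusted p = 0.196). With Hdac5, Hdac6 and Hdac10, the 4 that did not pass ran from -0.21 to 0.42.

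Corepressor subunits were read beside them: of 14 in NuRD and HDAC complexes, 2 rose and 1 fell. Rcor1, the CoREST scaffold, rose by 0.49 ± 0.14 (adjusted p = 0.0485), and Mbd3, a NuRD subunit, changed by -0.53 ± 0.14 (adjusted p = 0.0303). Rcor1 missed the threshold whichever array was left out (0.42 to 0.58), and Mbd3 passed only without Ebf1 replicate 2 (range -0.60 to -0.49). Mbd3 also missed the threshold with normexp correction (-0.40, adjusted p = 0.0747) and quantile normalisation (-0.42, adjusted p = 0.0661). None of 10 histone acetyltransferases passed. Kat6b had the smallest p among them in limma (0.43 ± 0.15, unadjusted p = 0.0237, adjusted p = 0.0838), and it was the 1 acetyltransferase with an unadjusted p under 0.05.

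The sirtuins, NAD-dependent deacylases, held the widest change of all 105 genes, and 2 of 7 rose. Sirt2, which deacetylates tubulin in the cytoplasm and histone H4 lysine 16 in mitosis, read 1.12, 1.20 and 1.31 in control cells and 3.35, 3.34 and 3.33 in Ebf1 cells (chr7:29573375-29573434). The 3 Ebf1 values differed by almost nothing (3.34 ± 0.01, SD, n = 3) and lay far above the controls (1.21 ± 0.09). The rise was 4.37-fold (change 2.13 ± 0.13, adjusted p = 3.58e-05), and 2.15 within the slide that held both groups. All 3 Sirt2 probes rose. The intron-spanning probe shown above read -0.53, -0.46 and -0.26 against 1.45, 1.72 and 1.48 (change 1.97 ± 0.15, adjusted p = 0.000101). The other, at chr7:29573412-29573472, overlaps the brightest probe in position and gave 2.17 ± 0.14.

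Sirt4, a mitochondrial sirtuin, read 0.84, 0.67 and 0.68 in control cells and 2.11, 1.34 and 1.35 in Ebf1 cells (chr5:115928163-115928222; change 0.87 ± 0.23, adjusted p = 0.0317). Ebf1 replicate 1 stood above the other Ebf1 arrays. The change was 1.44 within the slide that held replicate 1, and 0.62 without that replicate, where it still passed. It missed the threshold without any 1 of the 3 control arrays (0.84 to 0.92). Sirt1, the nuclear histone deacetylase of the family, read 1.59, 1.82 and 1.99 against 1.53, 1.51 and 1.42 (change -0.31 ± 0.15, adjusted p = 0.186). Sirt3, Sirt5, Sirt6 and Sirt7 did not pass either, and the 5 uncalled sirtuins ran from -0.31 to 0.39.

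DNA methylation enzymes gave 1 call in 6 tested genes. Dnmt3b, which places new methyl groups on CpG sites, read 3.22, 3.14 and 2.95 in control cells and 1.99, 1.99 and 2.07 in Ebf1 cells (chr2:153513083-153513142). The groups stood apart at 3.10 ± 0.13 and 2.02 ± 0.05 (SD, n = 3 each), a 2.12-fold decrease (change -1.08 ± 0.14, adjusted p = 0.00139). Within the slide that held both groups the change was -1.15, and leaving out 1 array gave -1.16 to -1.03 with the call kept each time.

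Dnmt3a, the second de novo methyltransferase, gave probes that disagreed. Its brightest probe, shown above, read 1.48, 0.97 and 1.39 in control cells and 0.01, 1.18 and 0.77 in Ebf1 cells (change -0.63 ± 0.30, adjusted p = 0.179). Under median scaling it passed (-0.94, adjusted p = 0.0347). A probe at chr12:3908227-3908286 read 0.68, 0.65 and 0.75 against -0.20, -0.21 and -0.09 and fell (change -0.86 ± 0.13, adjusted p = 0.0031). The probe nearest the 3′ end, at chr12:3912590-3912649, lay at -0.83, -0.73 and -0.65 against 0.33, -0.46 and -0.12 (change 0.65 ± 0.21, adjusted p = 0.0663). Dnmt1, which copies methylation after replication, overlapped at 3.91, 3.97 and 3.84 against 4.11, 3.69 and 3.79 (change -0.04, 95% interval -0.41 to 0.33). Tet2, an oxidase of 5-methylcytosine, read -3.86, -3.53 and -3.06 against -2.48, -3.29 and -2.76 (change 0.64 ± 0.27, adjusted p = 0.135). Its relatives Tet1 and Tet3 also did not pass, and the 5 uncalled genes spanned -0.63 to 0.64. Of 6 readers and cofactors, Mbd4, a glycosylase for mismatches at CpG sites, rose by 0.76 ± 0.16 (adjusted p = 0.0152). Uhrf1, which brings Dnmt1 to newly copied DNA, rose by 0.72 ± 0.18 (adjusted p = 0.0296). Mbd4 missed the threshold without control replicate 2 or 3 (0.71 and 0.72), and Uhrf1 passed only without Ebf1 replicate 2 (range 0.62 to 0.87).

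**Figure D3:**
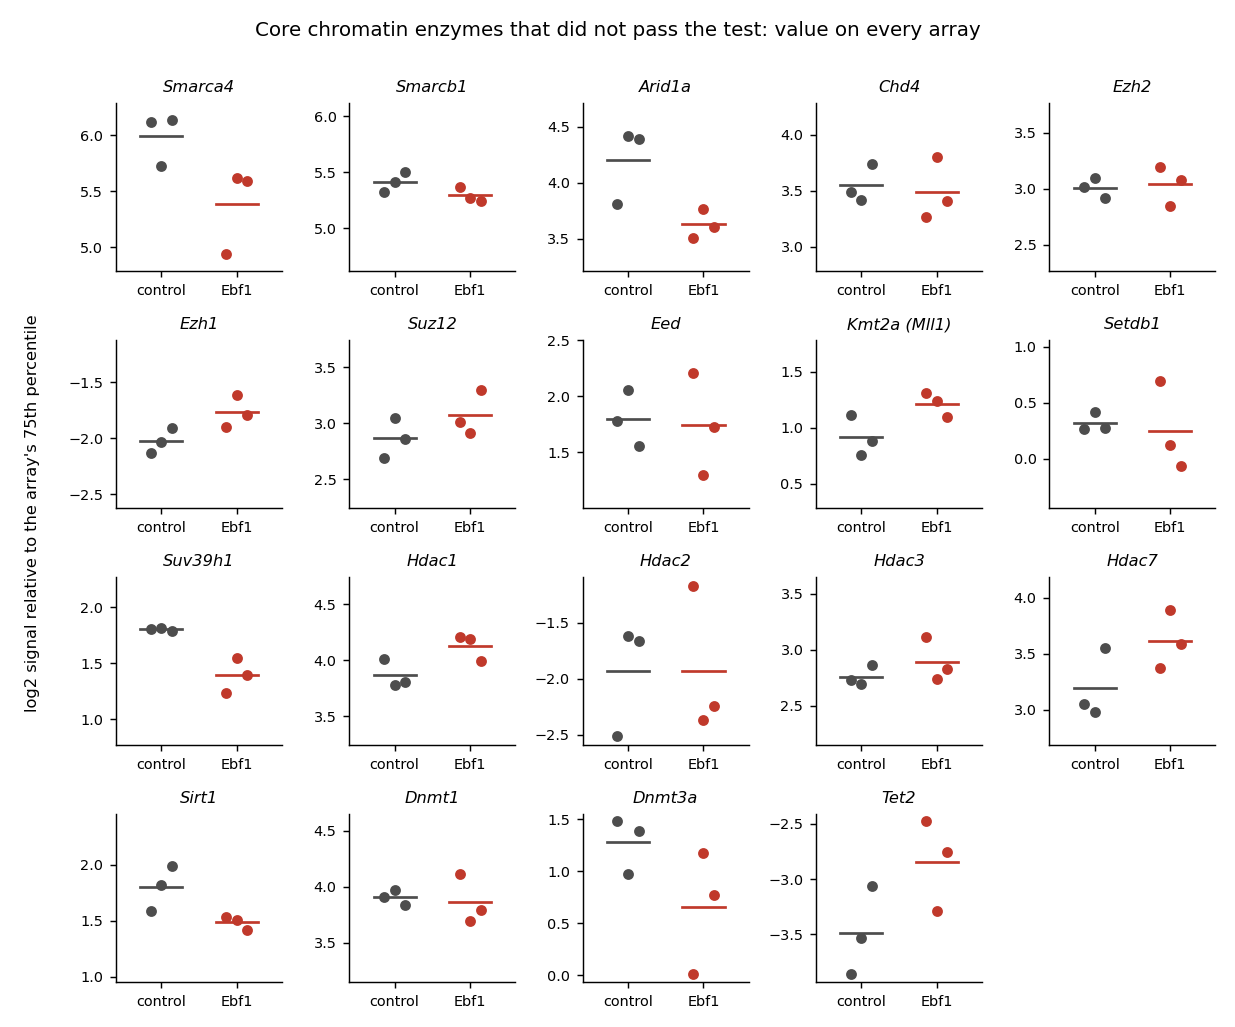
Value on every array (y axis, log2 signal relative to the array's 75th percentile, its range set for each panel) of 19 widely studied members that did not pass the test, with control and Ebf1 arrays on the x axis and bars at the group means. Ezh2 and Dnmt1 overlap closely, while Suv39h1 and Smarca4 do not overlap between groups although their adjusted p-values are 0.078 and 0.091.

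Over all lists of partners outside the naming rule, 11 of 80 tested genes rose and 3 fell (17.5%), against 23.6% of all genes, with a median change of -0.09.

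Several probes were tested for 61 of the 105 genes, and 19 of these had at least 1 called probe. In 6 genes every tested probe passed in the same direction: Cbx2, Cbx6, Hdac9, Jmjd2a, Setd7 and Sirt2. No gene had called probes in both directions. In 6 genes a dimmer probe passed while the brightest did not, namely Chd3, Chd4, Chd6, Dnmt3a, Jarid2 and Setd5. Both called Chd6 probes were dim. The change of 1.36 of the dimmer, well above background on 1 of 3 control arrays, became 0.25 after normexp correction. The 0.83 of the other became 0.31. Of the 20 called genes, 7 had 1 tested probe only, Smarcd2 and Dnmt3b among them, and in 7 another probe did not pass. Which exon or untranslated region a probe lies in was not analysed here.

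**Figure D4:**
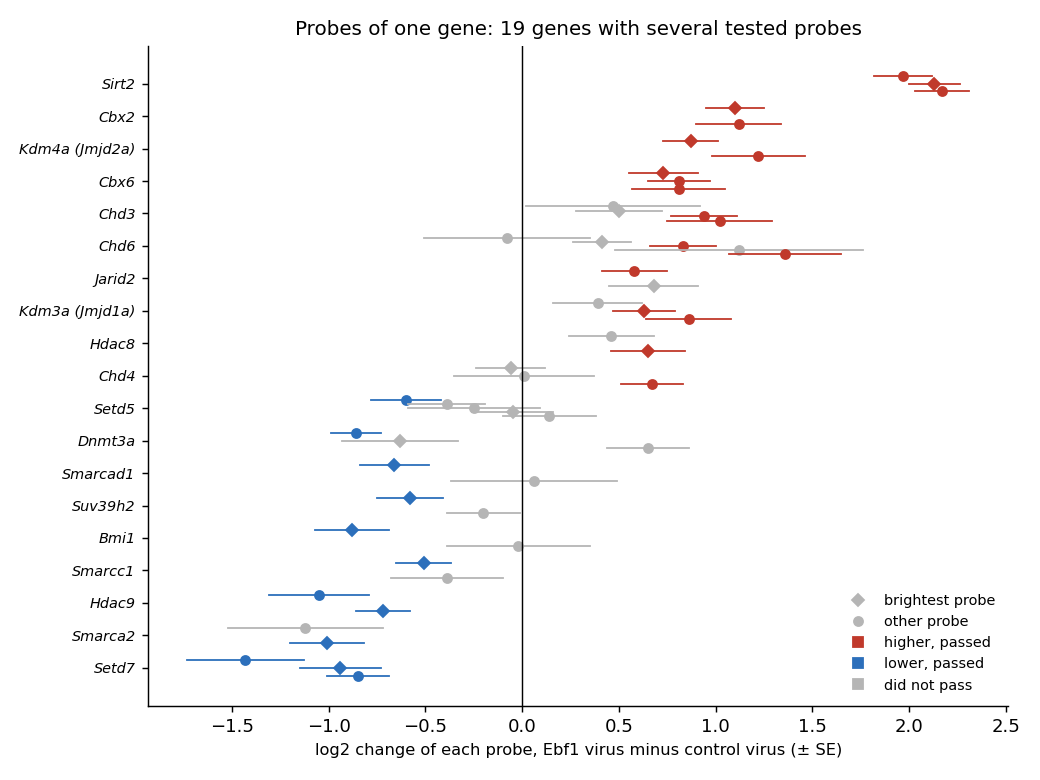
Log2 change of each tested probe (x axis, Ebf1 virus minus control virus, bars are the standard error) for the 19 genes with several tested probes and at least 1 call (y axis). Diamonds are the brightest probe of a gene, and the Sirt2 probes lie together at 1.97 to 2.17 while those of Dnmt3a spread from -0.86 to 0.65.

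The 6 arrays lay on 3 slides, of which only 1 held both groups (control replicate 2 and Ebf1 replicate 1). With the slide as a fixed block, which reduces to that pair, 5 of the 20 genes passed: Sirt2, Smarcd2, Dnmt3b, Bmi1 (-1.35) and Sirt4. Among those with the clearest calls otherwise, the change within that slide was 1.02 for Kdm4b (adjusted p = 0.075), 0.82 for Cbx2 (adjusted p = 0.0921), 0.91 for Kdm4a (adjusted p = 0.0884) and -1.18 for Smarca2 (adjusted p = 0.0816). The other genes that rose gave 1.10 (Hdac8), 1.01 (Kdm3a), 0.88 (Arid3a), 0.64 (Hdac4) and 0.58 (Cbx6). Those that fell gave -1.24 (Setd7), -1.07 (Smarcad1), -0.96 (Suv39h2), -0.81 (Hdac9) and -0.43 for both Smarcc1 and Chd1l. With groups that do not overlap, no pair of arrays could have given these 20 genes another direction. Of the named partners, Dpf1 (1.86) and Bcl7a (1.51) passed there, and Paxip1 gave 0.91 with an adjusted p of 0.0768. Median scaling left 10 of the 20. The changes of 8 genes that rose shrank and missed the threshold: Cbx2 (0.79), Kdm4a (0.56), Sirt4 (0.56), Arid3a (0.53), Cbx6 (0.43), Hdac8 (0.34), Kdm3a (0.32) and Hdac4 (0.25). Smarcc1 (-0.82, adjusted p = 0.0691) and Chd1l (-0.86, adjusted p = 0.0559) missed it with larger decreases. Among named partners, median scaling ended the calls of Brd9 (0.61), Paxip1 (0.56), Mbd4 (0.45), Uhrf1 (0.41), Nsd1 (0.33), Phc2 (0.29), Rcor1 (0.18) and Mbd3 (-0.84).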

How the data were processed

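Total RNA of the 6 samples was labelled with Cy3 and hybridised to 1-colour arrays. The deposited intensity values are spot signals that the authors extracted with Agilent Feature Extraction 10.5.1.1, per the file headers, with background subtracted and no scaling between arrays recorded. The deposited value table holds the same linear intensities (largest difference 0%), neither centred nor turned into ratios; its column medians are 13.14, 7.623 and 9.065 for control and 12.7, 12.29 and 19.73 for Ebf1 replicates 1 to 3. Positions are those of mm9. Control features (1639 of 45018) and outlier spots (65 to 116 per array) were left out, and no spot was saturated. From these, log2 signals minus each array's 75th percentile were computed and tested with limma 3.58.1 in R 4.3.3 (lmFit, eBayes, two-sided, Benjamini-Hochberg over 20455 probes, threshold 0.05). The array number limits the precision. On simulated data for this comparison (20447 probes, 50 changed at each size), 24% of changes of 1 and 86% of changes of 2 (log2) were recovered. Far fewer probes were changed there than the 4435 called in the data, so the adjusted threshold was stricter there. These shares therefore do not give the sensitivity reached here. Current symbols came from RefSeq accessions for 189 of the 244 probes.

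Genes were named by rule: up to 24 called genes with the smallest p whose groups did not overlap, a set of widely studied members whatever their values, and up to 3 called partners of each list. Members and lists were chosen with earlier results of these data known. A few genes of the lists are not reported here by name. Alternatives covered background correction, scaling, filter, slide, replicate number, variance prior, source table, probe choice and leaving out each array.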

Additional observations from a re-analysis of the deposited data

How the results depend on the processing

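Sirt2, Smarcd2 and Dnmt3b kept the call under each of 16 alternatives at the level of probes. The array held only 1 probe each for Smarcd2 and Dnmt3b. The 20 called genes had the same direction under normexp correction, quantile normalisation and median scaling. Leaving out 1 array or taking 1 pair of arrays could not turn it, since their groups do not overlap. Median scaling could not turn it either, since it moves every change down by the same amount, which is less than each called rise. Of the 20, normexp correction with an offset of 50 kept 17 and so did quantile normalisation. Scaling to the median kept 10, testing all probes 6, a block for the replicate number 11 and one for the slide 5, while the filter on all 6 arrays, the random slide block, the trended and robust prior and the deposited table kept all 20. The deposited table, also counted among the 16, holds the same intensities as the array files, so it could not differ. The random slide block had a within-slide correlation of 0.0106 and is thus close to the main fit. Counts of called probes were 24 higher and 14 lower; of called genes 11 and 9; of called partners 11 and 3. Median scaling gave 7 probes higher, 3 genes higher, and partners at 3 higher and 5 lower. Without a filter the counts were 7 and 2 probes, 5 and 1 genes, and 4 and 0 partners. The fixed slide block gave 11 and 5 probes, 4 and 3 genes, and 4 partners higher. The trended and robust prior gave 14 genes and 5 partners lower. With the replicate number as a block, 9 probes were lower, 6 genes higher and 5 lower, and 7 partners higher and 0 lower. The labels do not say whether same-numbered samples were prepared together. Their deviations from the group means correlated at -0.169, -0.247 and 0.0953, which with 3 samples per group cannot decide it. Leaving out 1 array gave 12 to 21 probes higher and 6 to 12 lower, 6 to 10 genes higher and 2 to 7 lower, and 4 to 8 partners higher and 0 to 2 lower.

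Some genes that did not pass took the other sign in places. Median scaling does this by moving every change down by the same amount, and for the other settings the cause was not tested. Under median scaling the change was -0.28 for Ezh2, -0.05 for Ezh1, -0.10 for Suz12, -0.01 for Mll1, -0.05 for Hdac1, -0.30 for Hdac2 and -0.17 for Hdac3. Quantile normalisation gave 0.06 for Smarcb1, 0.04 for Chd4, 0.00 for Eed, -0.08 for Hdac2 and 0.09 for Dnmt1. Normexp correction gave -0.08 for Ezh2, 0.02 for Setdb1 and 0.06 for Dnmt1. The fixed slide block gave -0.03 for Suz12, 0.16 for Eed, 0.27 for Setdb1 and 0.14 for Dnmt1. The mean of all tested probes gave 0.21 for Chd4. Leaving out 1 array gave -0.21 to 0.06 for Chd4 (0.04 and 0.06 above 0), -0.05 to 0.13 for Ezh2 (-0.05 and -0.01 below 0), up to 0.17 for Eed (0.08 and 0.17 above 0), up to 0.09 for Setdb1, -0.37 to 0.23 for Hdac2 (-0.37 and -0.29 below 0) and -0.16 to 0.05 for Dnmt1. Of the values of named genes under all alternatives, 188 lost a call, 8 gained one and 30 changed sign. The gains were Smarca4 and Arid1a under median scaling and the trended prior, Arid1a also without control replicate 1, Suv39h1 with normexp correction and the trended prior, and Dnmt3a under median scaling.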
